A study of Mus musculus with 18 samples.

Results

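Brn2 (gene symbol Pou3f2) and Myt1l are the transcription factors that every fibroblast culture of this study received, and both belong to small families. The genes described here are those 2 and their paralogues, taken by symbol: Pou3f1, Pou3f2, Pou3f3 and Pou3f4, and Myt1, Myt1l and St18. All 7 were found among the 35734 genes of the authors' deposited fibroblast table, and all 7 have a window of the gene body with 2 kb on each side in the mm10 chromatin data. The 4 POU class III genes encode proteins that bind octamer-like DNA through a POU-specific domain joined to a homeodomain, and they act in neural progenitors, neurons and glia. Brn2 often works beside SOX proteins in neural cells. Myt1, Myt1l and St18 encode zinc finger proteins that recruit co-repressors, and Myt1l is known for holding down non-neuronal programmes in neurons. In the retina, POU class III genes are known from progenitors, Muller glia (the radial support cells) and some inner retinal neurons.

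Mouse embryonic fibroblasts (MEFs) of the R26-M2rtTA line, on C57BL/6, received lentiviral vectors from which doxycycline switches on Brn2 and Myt1l, and were kept in doxycycline for 48 h. A second group had the same vectors plus those for Ikzf1 and Ikzf4, zinc finger factors of the Ikaros family, so both groups carried Brn2 and Myt1l and no culture without them was analysed here. RNA-seq and ATAC-seq (a transposase assay of open chromatin) had 3 libraries per group, and the labels do not say whether these came from separate cultures, so their spread may be technical. The multiome ATAC data held 1 library per condition: a control from retina (condition mCherry, mouse line GLAST-CRE ERT2 ; RosaYFP on C57BL/6, with Muller glia given as its cell type), and an Ikzf1/4 library whose labels repeat only its title. GLAST-Cre-ERT2 is a tamoxifen-dependent recombinase driven from a glial gene. Both are described with tamoxifen and 14 days. The run names in both file headers carry 48 h instead, and it was not settled which time is the right one. The animals' ages were not stated.

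The 6 RNA-seq libraries held 34966344 to 44270426 estimated reads. The control multiome library held 1872 cells with 13312001 fragments, a median of 6210 per cell, and the Ikzf1/4 library held 691 cells with 8780277 fragments, a median of 10931 per cell. The 2 libraries shared 3 cell barcodes. Cells in these libraries were not all Muller glia by their markers: of 10 clusters, 8 took the name of a retinal class, and 33.1% of control cells and 18.4% of Ikzf1/4 cells were Muller glia-like. The added factors were high in the right group: in the authors' deposited table Ikzf1 was higher by 7.76 and Ikzf4 by 8.54 (log2 fold change) with their vectors. Of 10 fibroblast markers, 7 were lower and 0 higher with Ikzf1/4 in that table, with a median log2 fold change of -0.38. Of the other marker lists there, neurons had 1 of 7 lower and 0 higher, muscle 1 of 4 higher (Cnn1) and 1 lower (Acta2), epithelium 1 of 3 higher (Epcam), oligodendrocytes 1 of 2 higher (Mbp), and endothelium and blood 0 of 4 and 0 of 3 in either direction. The part of these differences in the member values was not tested.

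The sequences just upstream of 3 member starts are shown because the chromatin data below turn on them. They are the 250 bases before 1 annotated start each, from RefSeq on GRCm38.p6 (mm10), 5′ to 3′ in the direction of transcription, with capitals marking CCAAT on either strand in the first 2 and the octamer ATGCAAAT, here on the opposite strand, in the third.
Pou3f2, chr4:22488367-22488616, minus strand: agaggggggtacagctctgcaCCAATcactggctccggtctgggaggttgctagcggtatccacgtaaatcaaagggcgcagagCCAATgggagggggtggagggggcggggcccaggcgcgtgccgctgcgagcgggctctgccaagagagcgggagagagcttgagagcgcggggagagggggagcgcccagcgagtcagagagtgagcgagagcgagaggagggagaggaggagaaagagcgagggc
Myt1, the second of 3 starts, chr2:181766779-181767028, plus strand: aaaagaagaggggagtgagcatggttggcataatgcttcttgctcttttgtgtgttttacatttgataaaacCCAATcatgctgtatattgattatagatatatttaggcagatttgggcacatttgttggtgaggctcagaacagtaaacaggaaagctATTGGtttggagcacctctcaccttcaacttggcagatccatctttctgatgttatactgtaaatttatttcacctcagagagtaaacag
Myt1l, the first of 5 starts, chr12:29528134-29528383, plus strand: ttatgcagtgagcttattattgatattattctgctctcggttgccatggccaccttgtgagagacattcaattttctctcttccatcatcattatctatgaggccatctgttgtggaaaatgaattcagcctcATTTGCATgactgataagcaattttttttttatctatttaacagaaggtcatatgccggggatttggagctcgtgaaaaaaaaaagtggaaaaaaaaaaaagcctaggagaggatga

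The RefSeq table holds 1 promoter each (250 bases before to 50 after the start) for Pou3f2, Pou3f3 and Pou3f4, 3 for Myt1 and 5 for Myt1l. The 3 POU promoters are rich in CpG, with 24 CpG in Pou3f2, 18 in Pou3f3 and 15 in Pou3f4, against a median of 7 over 32851 promoters of the same length. The Myt1 promoters hold 1 or 2 CpG and the Myt1l promoters 4 to 13. Both strands were searched for ATGCAAAT (the octamer), AAAGTTT (the core bound by Myt-family proteins), TGGGAA (the Ikaros core) and CCAAT, where CCAAT was chosen after the sequences were seen. Of the 11 member promoters, only the first of Myt1l holds ATGCAAAT, at position -117 counted from the start as 0, and 1.74% of all promoters hold it. AAAGTTT lies in 1 Myt1 promoter, the third, and in 4.74% of all. TGGGAA lies in the third Myt1, the last Myt1l and the Pou3f3 promoter, and in 25.6% of all. CCAAT occurs 2 times in Pou3f2 and 3 times in Pou3f3, in Pou3f4 and in the first and the second Myt1 promoter, where 11.7% of all promoters hold at least 2 and 3.37% at least 3.

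The first question was whether adding Ikzf1 and Ikzf4 changed the RNA of these genes in fibroblasts that already carried Brn2 and Myt1l. Of the 7 members, 1 passed an adjusted p of 0.05 in the authors' deposited table, and the background is that 30.6% of the 16757 genes with an adjusted p did. Myt1l was that gene, higher by 0.50 on the log2 scale with Ikzf1/4 (SE 0.17, adjusted p = 0.0157 by DESeq2). Pou3f2, the other delivered factor, had a log2 fold change of -0.05 (SE 0.08, adjusted p = 0.689) in the authors' deposited table, with a 95% interval from -0.22 to 0.11. The deposited table gives no value per library, so spread and overlap between the 3 libraries per group cannot be shown.

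The 2 delivered factors stood far above their paralogues. In the authors' deposited table the mean normalised count over the 6 libraries was 151148 for Pou3f2 and 18677 for Myt1l, above those of 99.97% and 98.3% of the genes with an adjusted p. Reads from the vectors and from the endogenous genes cannot be told apart in these values. Per kb of gene, which is possible for the intronless POU class III genes, the authors' deposited table gave a mean of 24099 for Pou3f2, 35.9 for Pou3f3, 21.4 for Pou3f4 and 12.01 for Pou3f1. Pou3f2 was thus 671-fold above Pou3f3, 1126-fold above Pou3f4 and 2007-fold above Pou3f1 per kb. The lengths are those of the annotated genes, and the length of the delivered Brn2 sequence was not used. The 4 proteins are alike in their POU domains, and how many reads were assigned to the wrong paralogue was not tested.

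Among the Myt family, the authors' deposited table gave St18 a mean normalised count of 29.98 and Myt1 one of 5.67, the latter near 34.0 counts over all 6 libraries together. For Myt1l, whose mean was high, the SE of the log2 fold change was larger than for 73.6% of genes in the authors' deposited table. Of 407 genes with a mean within 1.5 times that of Myt1l, 45.5% passed the threshold there.

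None of the 5 paralogues that were not delivered passed the threshold. Pou3f1, a factor of Schwann cells and cortical neurons, had a log2 fold change of 0.49 (SE 0.22, adjusted p = 0.0785) in the authors' deposited table, with an interval from 0.06 to 0.93 that takes no account of the number of genes tested. That value is close to the 0.50 of Myt1l, and it is larger in size than those of 79.7% of the 1026 genes with a mean count within 1.5 times that of Pou3f1. Pou3f3 had -0.07 (SE 0.15, adjusted p = 0.802) and Pou3f4, which is X-linked and needed in the inner ear, had 0.08 (SE 0.18, adjusted p = 0.783) in the same authors' deposited table. Myt1 had 0.28 (SE 0.14, adjusted p = 0.134) and St18 had -0.11 (SE 0.22, adjusted p = 0.767) in the authors' deposited table as well. For Pou3f4 and St18 the 95% intervals ran from -0.26 to 0.43 and from -0.54 to 0.32, so changes of these sizes are not left out. Of genes with a mean within 1.5 times their own, the share that passed in the authors' deposited table was 31.5% for Pou3f3, 27.9% for Pou3f4, 17.2% for Pou3f1, 14.9% for St18 and 2.73% for Myt1.

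**Figure D1:**
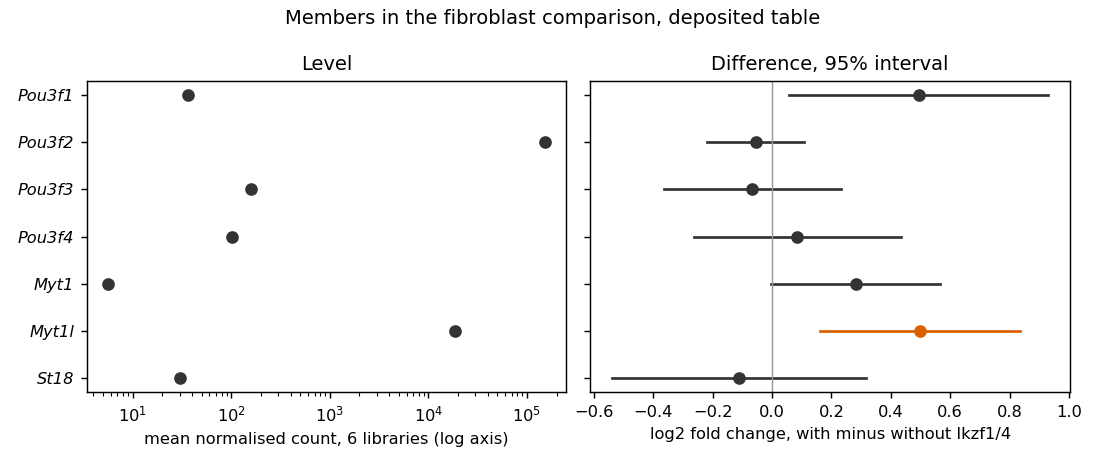
Mean normalised count over 6 libraries (left, log axis) and log2 fold change with minus without Ikzf1/4 (right) of the 7 members in the deposited fibroblast table, with points for the values and bars for 95% intervals from the deposited SE. Pou3f2 and Myt1l stand at the right of the level panel, and the orange point, Myt1l at 0.50, is the member that passed the adjusted p threshold.

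Genes that work with the 2 families were read from the same table, and each list is described by its counts beside the 30.6% called over all genes and the median log2 fold change of -0.0004 over them. Of 11 POU genes of other classes, 6 had an adjusted p, of which 2 were higher and 0 lower, with a median of 0.31 in the authors' deposited table. Pou4f1, a factor of sensory and retinal ganglion neurons, was higher by 1.03 (SE 0.20, adjusted p = 4.12e-06), and Pou2f1, the ubiquitous octamer factor, by 0.46 (SE 0.10, adjusted p = 3.84e-05), on the log2 scale of the authors' deposited table. Pou1f1, Pou2f3, Pou4f2, Pou5f1 and Pou5f2 had no adjusted p. Of 7 SOX genes, 4 had one, and 2 were higher and 0 lower in the authors' deposited table, namely Sox3 by 0.53 and Sox11 by 0.23, the latter a neuronal SOX factor, and the median was 0.06. Sox1, Sox2 and Sox10 had none.

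Of 8 co-repressor genes of Myt-family proteins, 1 was higher and 1 lower in the authors' deposited table: Sin3a, the scaffold of the Sin3 complex, by 0.28 (adjusted p = 1.26e-05), and Kdm1a, a histone demethylase, by -0.12 (adjusted p = 0.0494). Of 18 early genes of neuronal reprogramming, 15 had an adjusted p in the authors' deposited table, with 2 higher (Insm1 by 0.49, Neurog2 by 0.59) and 1 lower, the neuronal tubulin gene Tubb3, at -0.42. Of 17 Notch and Wnt genes, on which Myt1l is known to act, 16 had one, with 4 higher and 1 lower in the authors' deposited table. Hey1, a Notch target, was higher by 0.80, Notch1 by 0.46, Jag2 by 0.48 and Notch2 by 0.30, and the ligand gene Jag1 was lower at -0.63 (adjusted p = 1.87e-16). The medians of the last 3 lists were -0.03, 0.06 and 0.06. The shares called in these lists run from 20% to 50%, around the 30.6% of all genes.

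The second question was where the member loci were open in the retinal cells. Levels are in CPM, the fragments of the window scaled to 1000000 fragments of the same cells, with exact Poisson 95% intervals for counting error only, and cells of both libraries are pooled unless said otherwise. Clusters were built without the member windows, and no test compares classes, since they come from 1 library per condition. Droplet data were filtered by fragments per cell, no doublet caller was run, and the names of the classes are rebuilt from marker lists. The amacrine-like class is 1 cluster of 76 cells whose amacrine markers had a median fold of 2.26 over other cells, close to the 2.17 of horizontal cell markers, and 0 of its own markers were among its 10 leading windows. That last count was 0 also for the microglia-like cluster and for cluster 0, which holds 644 of the 876 bipolar-like cells and had 6 of 9 bipolar markers up with a median fold of 1.85, against 3.68 in cluster 5, the other bipolar-like cluster.

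Pou3f2 was open in the Muller glia-like class. Its window (chr4:22480095-22490366) had 59.3 CPM there (52.9 to 66.3), which is 15.7 times the genome mean per kb. In bipolar-like, microglia-like, cone-like, rod-like and amacrine-like cells it had 7.34, 5.58, 5.33, 5.30 and 2.85 CPM, and the intervals of these 5 overlap one another. The 2 Muller glia-like clusters gave 58.9 and 60.3 CPM. By the ratio of Muller glia-like cells to all other cells, 7.34, the Pou3f2 window ranked 13 of 13466 windows with at least 300 fragments. Of control Muller glia-like cells 27.9% had a fragment in the window, against 3.29% of control bipolar-like cells, whose median depths were 5420 and 5599 fragments. An unnamed cluster of 24 cells had 99.7 CPM (68.2 to 140.7), with Cftr, Cttnbp2 and Gli3 among its 10 leading windows. Its level was 134.8 CPM from 17 control fragments and 77.0 from 15 Ikzf1/4 fragments, of which 10 came from 1 cell. At lower resolution (9 clusters) these 24 cells fell in the Muller glia-like class, whose level was then 61.7 CPM.

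Most of this signal lay at the start of the gene. Within 500 bases on either side of the Pou3f2 start, Muller glia-like cells had 248 fragments (47.2 CPM) and the other named classes 0 to 4.34 CPM. The 500 bases before the start, which hold the Pou3f2 sequence shown above with its 2 CCAAT, had 38.4 CPM (33.3 to 44.1) and the 500 bases after it 7.99. A smaller group of 25 fragments lay 6500 to 7000 bases upstream in the Muller glia-like class, 4.75 CPM (3.08 to 7.02), against at most 0.96 in the other named classes.

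**Figure D2:**
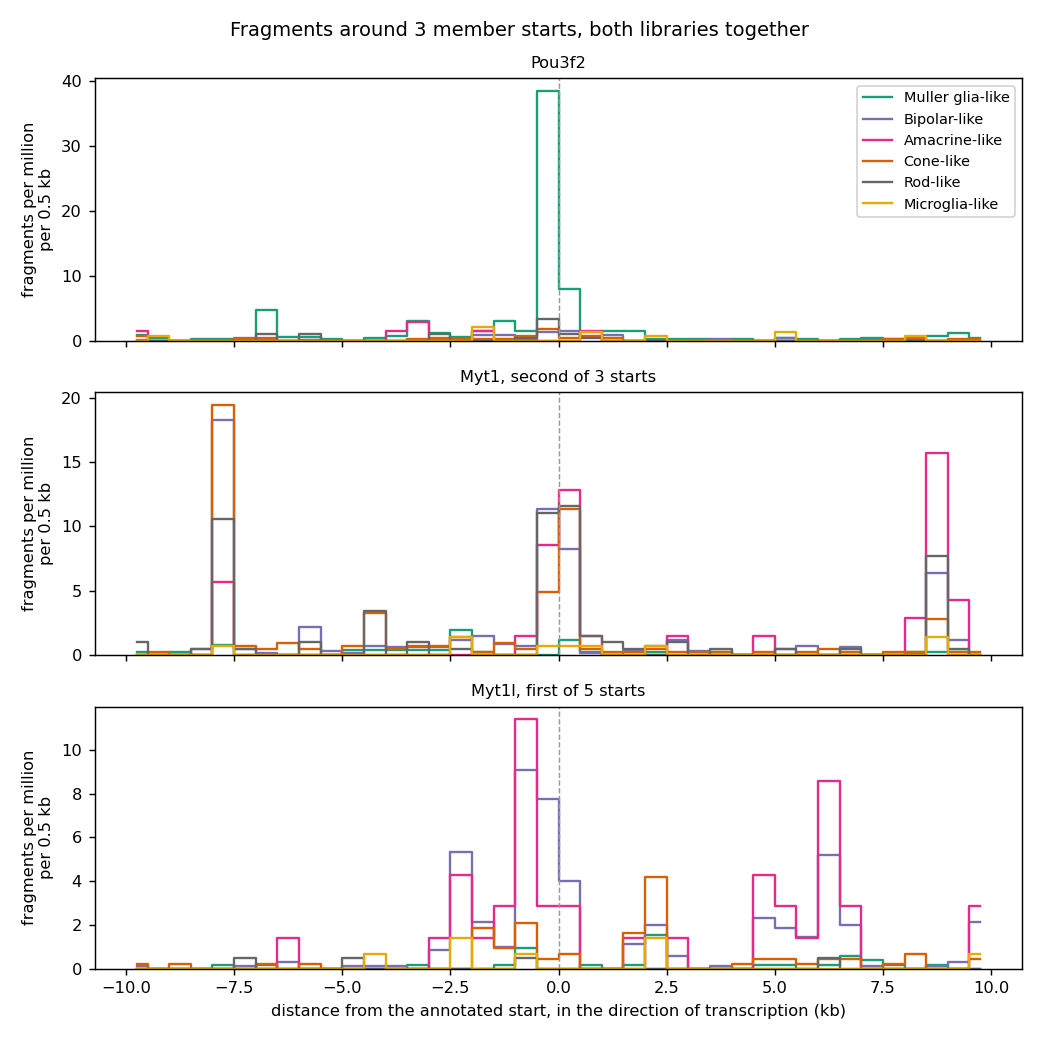
CPM in steps of 0.5 kb around 1 annotated start each of Pou3f2, Myt1 and Myt1l, by retinal class, both libraries together, with distance in kb in the direction of transcription and a dashed line at the start. The green Muller glia-like line peaks at 38.4 before the Pou3f2 start, while the neuronal classes stand above it at the Myt1 and Myt1l starts.

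The other POU class III windows differed from one another. Over all cells the Pou3f1 window, 7.01 kb long, had 4.41 times the genome mean per kb in the control, above 69.5% of windows, while Pou3f2 was above 77.7%, Pou3f3 above 37.3% and Pou3f4 above 9.07%. Pou3f1 was highest in amacrine-like cells with 29.9 CPM (18.5 to 45.8), which is 11.6 times the genome mean per kb, then 17.8 in cone-like, 14.0 in rod-like, 12.6 in microglia-like, 8.78 in bipolar-like and 8.75 in Muller glia-like cells, and each neighbour in this order lies within the interval of the next or overlaps it. Pou3f3, a factor of cortical and kidney development, ranged from 1.40 CPM in microglia-like to 9.98 in amacrine-like cells, and the intervals of the amacrine-like, cone-like, bipolar-like and Muller glia-like classes overlap. By library these ends rest on few fragments. In the control, rod-like cells had 0 Pou3f3 fragments, with an upper limit of 6.21 CPM, and microglia-like cells had 1.70 CPM. In the Ikzf1/4 library, the 4 amacrine-like cells had 0, with an upper limit of 48.6 CPM, and cone-like cells had 12.4 CPM. These counts of 0 do not show a difference between the libraries. Pou3f4 had 5.70 CPM in amacrine-like cells (1.55 to 14.6), from 4 fragments, and 2.59 in bipolar-like cells. It had 0 of 2075688 rod-like fragments. At their starts Pou3f3 had 22 fragments and Pou3f4 19 over all cells, against 315 for Pou3f2.

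Myt1 was open in the neuronal and photoreceptor classes and low in Muller glia-like and microglia-like cells. Its window (chr2:181761332-181829775) had 67.0 CPM in amacrine-like, 62.1 in rod-like, 58.1 in bipolar-like and 53.5 in cone-like cells, with intervals that overlap. Muller glia-like cells had 13.7 (10.7 to 17.2) and microglia-like cells 13.3 (7.98 to 20.7), both about 0.5 of the genome mean per kb (0.54 and 0.53). Over all control cells the Myt1 window lay above 33.4% of gene windows per kb. At the second of the 3 starts, the Myt1 sequence shown above, rod-like cells had 23.1, amacrine-like 22.8, bipolar-like 19.7 and cone-like 16.7 CPM, against 1.14 in Muller glia-like and 1.40 in microglia-like cells. The rod-like level was 15.1 CPM among control cells, from 9 fragments and the lowest of these 4 classes there, and 26.3 among Ikzf1/4 cells. This start drew 289 fragments over all cells, the first start 35 and the third 4. A region 7500 to 8000 bases upstream of the second start had 19.5 CPM in cone-like, 18.3 in bipolar-like and 10.6 in rod-like cells, and 0.76 in Muller glia-like cells. One of 8500 to 9000 bases downstream had 15.7 in amacrine-like, 7.71 in rod-like, 6.33 in bipolar-like and 2.78 in cone-like cells.

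Myt1l, a long gene of post-mitotic neurons, had its highest levels in amacrine-like (242 CPM, 207 to 282) and bipolar-like cells (213, 202 to 224) over a window of 399.6 kb (chr12:29525590-29925216). These were 1.65 and 1.45 times the genome mean per kb. Over all control cells, however, the Myt1l window lay above only 21.5% of gene windows per kb. Muller glia-like cells had 129 (119 to 139), cone-like cells 96.9, microglia-like cells 42.6 and rod-like cells 31.3, the last 0.21 of the genome mean. The rod-like level differed by library, with 69.0 among control cells and 16.2 among Ikzf1/4 cells, which are most of the class, and microglia-like cells had 40.7 and 51.1, so the order of these 2 classes turns in the control. In the pooled cells the amacrine-like and bipolar-like intervals overlap, as do those of microglia-like and rod-like cells, and the other neighbours do not. Among Ikzf1/4 cells alone Muller glia-like and cone-like cells both had 91.2 CPM, against 142.3 and 101.8 among control cells. At the first start, whose sequence with the octamer is shown above, bipolar-like cells had 85 fragments (12.2 CPM) and amacrine-like cells 5 (7.13 CPM), while Muller glia-like, rod-like and microglia-like cells had 0. For the Muller glia-like count of 0 the exact Poisson upper limits were 0.954 CPM for control and 2.65 for Ikzf1/4 cells, and a floor of 3 fragments is 0.776 and 2.15 CPM. The last 3 of the 5 starts lie within 1 kb and share fragments.

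Within the Myt1l window the fragments of the classes were spread differently in the pooled cells. The 5 kb with most fragments, from the lower end of the gene (chr12:29527590-29532589), had 21.4 CPM in bipolar-like cells, 2.09 in Muller glia-like and 0 in rod-like cells. The stretch with the second most (chr12:29547590-29552589) had 13.7 CPM in Muller glia-like cells (10.7 to 17.2), above the 5.90 in bipolar-like cells (4.23 to 8.0) and the 1.85 in cone-like cells. By library the second stretch had 15.8 CPM in control and 7.90 in Ikzf1/4 Muller glia-like cells, against 6.58 and 4.92 in bipolar-like cells, so with 11 and 14 fragments the 2 classes do not separate among Ikzf1/4 cells. These stretches were chosen for their fragment counts over all cells, not by class.

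St18, the third gene of the Myt family, was highest in the inner retinal neurons. Its window (chr1:6485231-6862940) had 110.5 CPM in bipolar-like cells (103 to 119) and 89.8 in amacrine-like cells (69.0 to 115), whose intervals overlap, then 40.9 in Muller glia-like, 19.5 in microglia-like, 19.2 in cone-like and 14.9 in rod-like cells. The intervals of the last 3 overlap and their order turns with the library, cone-like cells being highest of them in the control (24.4) and lowest in the other (13.4). By the ratio of bipolar-like cells to all other cells, 3.37, it ranked 37 of 13466 windows. All class levels of St18 lay below the genome mean per kb, from 0.11 to 0.80 times it. Over all control cells its window lay above 5.28% of gene windows per kb. Its densest 5 kb (chr1:6727231-6732230) had 13.8 CPM in bipolar-like cells and 0.93 in cone-like cells.

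**Figure D3:**
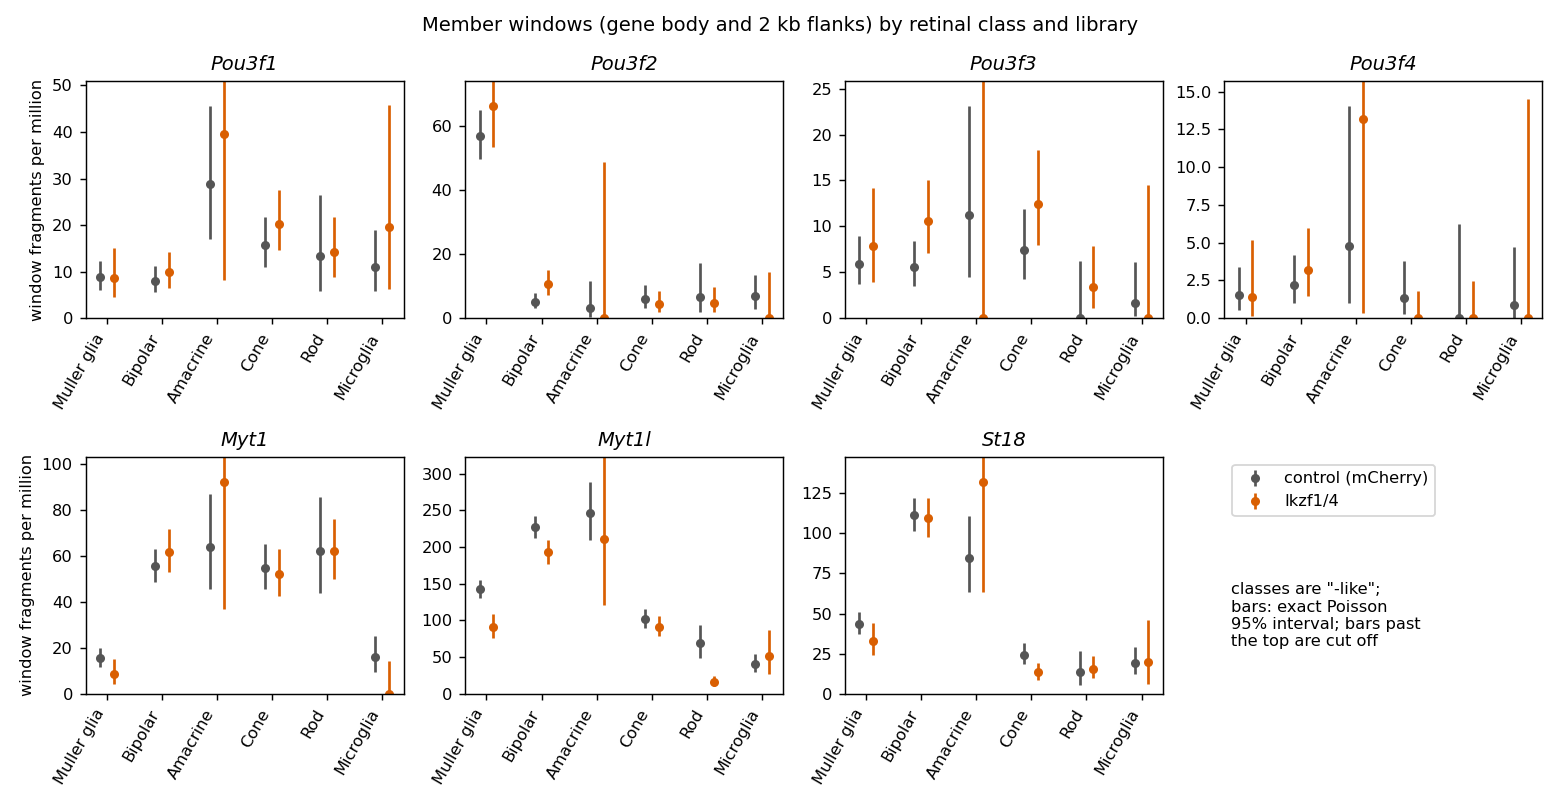
CPM in the 7 member windows by retinal class (all "-like") in the control (grey) and Ikzf1/4 (orange) library, with points for levels and bars for exact Poisson 95% intervals. Pou3f2 stands at 56.9 and 66.1 in Muller glia-like cells of the 2 libraries, Myt1 is lowest there and in microglia-like cells, and the amacrine-like values of the Ikzf1/4 library rest on 4 cells.

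Across the 10 clusters the members did not share one pattern. The correlation of log2(CPM + 1) was -0.81 between Pou3f2 and Myt1, 0.82 between Myt1l and Pou3f3 and 0.80 between Myt1l and St18. It was also 0.82 between Pou3f4 and St18, although Pou3f4 had only 38 fragments over all clusters, and -0.73 between Pou3f1 and Pou3f2. The pairs given are the most extreme ones among all member pairs. All are descriptions over 10 clusters that share the same 2 libraries and differ in depth. Among 11311 windows with at least 500 fragments, those most like Pou3f2 were Trim2, Sox2 and Lhx2 (0.96 each). Those most like Myt1l were Bdnf (0.97), Chst10 and Ctnna2 (0.96 each), and those most like Myt1 were Xkr6, Msra and Syt14 (0.96 each). Slc7a14, Fstl5 and Zfp618 were most like St18 (0.96, 0.95 and 0.95). Ebf3, Elavl3 and Srbd1 were most like Pou3f1 (0.92, 0.89 and 0.87). Igsf9b, Otud7a and Shank2 were most like Pou3f3 (0.95, 0.92 and 0.92). Each of these values was picked as the highest of 11311 over only 10 points, and Pou3f1, Pou3f2 and Pou3f3 themselves had fewer than 500 fragments (267, 448 and 153). For Pou3f4, with 38 fragments, no likeness is given.

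The third comparison set the Ikzf1/4 library beside the control library. With 1 library per condition there is no replicate check and no test, and an interval covers counting error of these 2 libraries only. Over all cells, 5 of the 7 member windows had a ratio whose 95% interval left out 1. The background is that 44.9% of 17571 gene windows with at least 50 fragments did, with 31.2% above 1, 13.7% below 1 and a median ratio of 1.06. That share rises with the fragment count. Among windows with a count within 1.5 times the member's own it was 68.6% for Myt1l, 55.0% for St18 and 48.8% for Myt1. For Pou3f2, Pou3f1, Pou3f3 and Pou3f4 it was 37.1%, 32.1%, 25.4% and 20%. The windows compared had at least 50 fragments, so for Pou3f4, with 38, the 255 windows all held more than it did. Past 1.5-fold, a rule added after the data were seen, lay 1 member (Pou3f3) and 7.77% of windows.

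The Pou3f2 window had 21.9 CPM in the control and 17.8 in the other library, which gives 0.81 (0.66 to 0.99). At its start the counts were 220 and 95 fragments, a ratio of 0.65 (0.51 to 0.84). The Muller glia-like class, where Pou3f2 is open, was 33.1% of control cells (30.9% to 35.2%, exact binomial) and 18.4% of Ikzf1/4 cells (15.6% to 21.5%). Within that class the Pou3f2 window had 56.9 and 66.1 CPM, a ratio of 1.16 (0.90 to 1.49), and its start 46.8 and 48.1, a ratio of 1.03 (0.76 to 1.37). With the control's level per cluster weighted by the cluster make-up of the Ikzf1/4 library, the Pou3f2 level came to 16.9 CPM, and the ratio to it was 1.05. These values have no interval. The part of the make-up in the Pou3f2 ratio was not tested and cannot be told apart with 1 library per condition. The same holds for the make-up ratios of the other members below. Among cells with at least 10000 fragments the Pou3f2 ratio within that class turned to 0.72 (0.47 to 1.08), so its direction there depends on the depth asked of a cell.

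Myt1l went from 155.9 to 115.6 CPM, a ratio of 0.74 (0.69 to 0.80) and 1.86% of 1935 windows with a fragment count within 1.5 times its own had a lower one. At the same cluster make-up the ratio was 0.82. It was below 1 within rod-like cells (69.0 and 16.2 CPM, 0.23, 0.14 to 0.40), Muller glia-like cells (142.3 and 91.2, 0.64, 0.52 to 0.78) and bipolar-like cells (226.8 and 193.3, 0.85, 0.77 to 0.95). Bipolar-like cells lay mostly in cluster 0 in the control (525 of 639 cells), and about equally in clusters 0 and 5 in the Ikzf1/4 library (119 and 118). Within cluster 0 the Myt1l ratio was 1.03 (0.91 to 1.17) and within cluster 5 it was 0.81 (0.64 to 1.02), so neither interval left out 1. Muller glia-like cells lay in clusters 1 and 3, with 379 and 240 control cells against 58 and 69 Ikzf1/4 cells. Their Myt1l ratios were 0.64 (0.49 to 0.81) and 0.77 (0.54 to 1.09), the latter including 1. Counted at gene ends alone, the ratio over all cells was 0.95 (0.75 to 1.21). Among windows with at least 50 fragments in the class, the shares whose interval left out 1 were 12% in rod-like, 20.6% in Muller glia-like and 24.4% in bipolar-like cells. The 41 control and 24 Ikzf1/4 rod-like fragments came from 27 of 95 and 19 of 138 cells, at most 4 from 1 cell. Among rod-like cells with at least 10000 fragments the Myt1l ratio was 0.12 (0.06 to 0.22). Of 10 summed marker lists in rod-like cells, 2 had a ratio whose interval left out 1, horizontal cells at 1.81 (1.17 to 2.88) and vascular cells at 0.56 (0.37 to 0.84), and rod markers had 0.97 (0.90 to 1.05). In Muller glia-like cells 4 did, astrocytes at 1.60 (1.38 to 1.86), cones at 1.31 (1.16 to 1.47), Muller glia at 1.20 (1.13 to 1.27) and horizontal cells at 0.70 (0.52 to 0.91). In bipolar-like cells 5 did, bipolar cells at 1.86 (1.79 to 1.94), ganglion cells at 1.20, amacrine cells at 1.18, cones at 0.89 and vascular cells at 0.70. The part of these markers in the Myt1l ratios was not tested.

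Myt1 went from 39.7 to 49.0 CPM, a ratio of 1.23 (1.08 to 1.40), and at the same cluster make-up the ratio was 1.08. Rod-like cells, where Myt1 is open, were 5.07% of control and 19.97% of Ikzf1/4 cells. The part of this make-up in the Myt1 ratio was not tested. Within rod-like cells Myt1 had 62.2 and 62.1 CPM, within cone-like cells 54.8 and 52.1. In bipolar-like cells the ratio was 1.11 (0.91 to 1.36), with 1.38 (1.09 to 1.74) in cluster 0 and 0.96 (0.61 to 1.51) in cluster 5. In Muller glia-like cells it was 0.56 (0.27 to 1.04), with 0.93 (0.41 to 1.91) in cluster 1. In cluster 3 it was 0.16 (0.02 to 0.67), from 23 and 2 fragments. In the unnamed cells it was 1.81 (1.02 to 3.32), where 17 of the 38 Ikzf1/4 fragments came from 1 cell. With all barcodes in place of cells the ratio of Myt1 was 1.06 (0.98 to 1.14). Within microglia-like cells it had 19 fragments in 116 control cells and 0 in 18 Ikzf1/4 cells, fewer than the 50 asked of the windows of which 12.2% left out 1 there.

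St18 went from 60.8 to 51.9 CPM, a ratio of 0.85 (0.76 to 0.96), and 0.82 at the same make-up. Among cells with at least 10000 fragments it was 0.99 (0.85 to 1.15). Within bipolar-like cells the St18 ratio was 0.98 (0.85 to 1.14), with 1.06 (0.88 to 1.29) in cluster 0 and 0.71 (0.55 to 0.91) in cluster 5. Within cone-like cells it had 24.4 and 13.4 CPM, a ratio of 0.55 (0.33 to 0.88), where 17.9% of windows left out 1 and summed cone markers had a ratio of 0.75 (0.70 to 0.80) and rod markers 0.78 (0.71 to 0.85). The part of these markers was not tested. Within amacrine-like cells, 4 of them in the Ikzf1/4 library, neither Myt1l nor St18 left out 1, against 7.84% of windows with at least 50 fragments there, and the other 5 members had fewer fragments than that.

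Pou3f3 went from 5.48 to 9.11 CPM, from 73 and 80 fragments, a ratio of 1.66 (1.19 to 2.31), and 98.5% of 1919 windows with a fragment count within 1.5 times its own had a lower one. At the same cluster make-up the ratio was 1.96. The control level used for that rests on 0, 3, 1 and 0 Pou3f3 fragments in clusters 4, 5, 8 and 9. The 1.96 is therefore not read as a larger difference than 1.66. Among cells with at least 1000 and at least 10000 fragments the Pou3f3 ratio was 1.67 (1.20 to 2.31) and 1.83 (1.13 to 3.03). With all barcodes in place of cells it was 0.99 (0.81 to 1.21), and the cause of that difference was not tested. Within bipolar-like cells the ratio was 1.88 (1.06 to 3.39) for Pou3f3 and 2.06 (1.14 to 3.79) for Pou3f2. Within cluster 0 these ratios were 1.59 (0.74 to 3.31) and 2.27 (1.116 to 4.63), and within cluster 5 they were 2.90 (0.83 to 15.5) and 2.18 (0.59 to 12.02). At the Pou3f2 start, control and Ikzf1/4 bipolar-like cells had 11 and 9 fragments, a ratio of 1.18 (0.43 to 3.13). At the Pou3f3 start they had 1 and 6, a ratio of 8.65 (1.05 to 398). The part of the bipolar markers, at 1.86 in these cells, was not tested. Of the 30 Ikzf1/4 Pou3f2 fragments in bipolar-like cells, 4 came from 1 cell. Pou3f1 went from 11.3 to 13.2 CPM (1.16, 0.91 to 1.49). Pou3f4 went from 1.88 to 1.48 CPM (0.79, 0.37 to 1.60), and chromosome X as a whole had 23747 and 18443 CPM in the 2 libraries. Relative to that chromosome its ratio was 1.02.

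**Figure D4:**
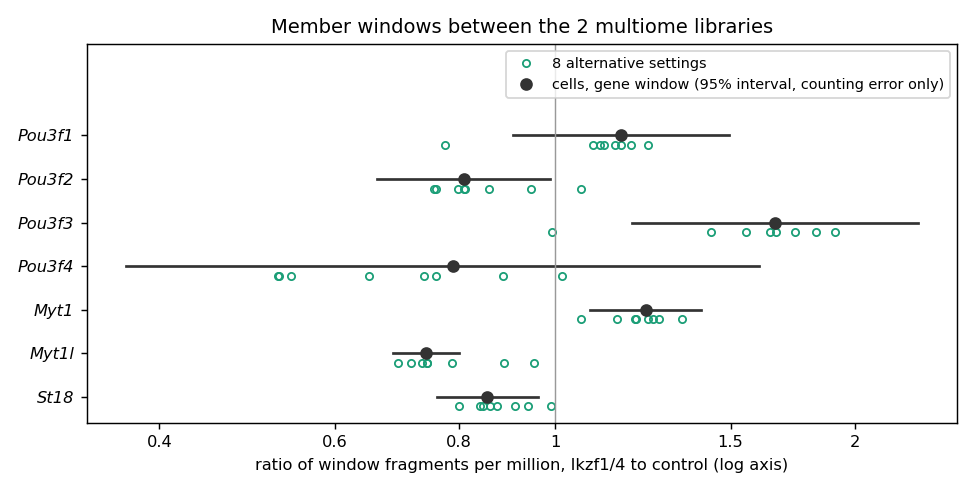
Ratio of window CPM, Ikzf1/4 to control, for the 7 members on a log axis, with filled points and bars for cells and gene windows with 95% intervals, and open circles for 8 alternative settings. Myt1l at 0.74 has ratios below 1 in all settings, although its interval includes 1 with gene ends alone (0.95), while open circles of Pou3f1, Pou3f2, Pou3f3 and Pou3f4 fall on both sides of 1.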

How the data were processed

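Members and lists were chosen with earlier results of these data known. Per the labels, the authors quantified poly(A) RNA with salmon, as estimated counts and TPM per transcript, and compared genes with DESeq2. Their deposited table gives a mean normalised signal, a log2 fold change, its standard error (other), a Wald score and p-values, and was used as deposited. Its fold changes may be shrunk: the median SE was 0.049 for genes with a mean up to 2. No source used here pairs transcripts with genes, so no transcript test was run. The authors' deposited MACS2 peak lists (score, fold ratio, -log10 p and q) run past the mm10 end of chromosome 1, and no gene positions of their build were used here. Per the file headers, cellranger-arc made the fragment files with mm10, with counts of read pairs per unique fragment. Unique fragments were counted per window in barcodes with at least 3000 fragments and a gene-end enrichment of at least 4, below the 99th percentile. Cells were clustered on 16789 windows without the members (latent semantic components, leidenalg 0.10.2, resolution 1), and clusters under 50 cells stayed unnamed, a rule added after the data were seen. Ratio intervals are exact conditional binomial intervals and were tested on simulated data. Named genes were all members, the called members of fixed lists (at most 4 per direction) and the 3 most alike windows, except for Pou3f4, which was too sparse. The 4 single-cell and multiome RNA samples were not analysed here.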

Additional observations from a re-analysis of the deposited data

How the results depend on the processing

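Requiring an absolute log2 fold change over 1, or an adjusted p under 0.01, left 0 called members in the authors' deposited table, where Myt1l had 0.0157, against 2.15% and 22.5% of all genes. The count of 5 member windows whose interval left out 1 became 3 with at least 10000 fragments per cell, 2 with gene ends alone and 1 past 1.5-fold (added after the data were seen). It was 4 to 6 under the other 6 settings, the highest being with read pairs, which repeat the same fragments. Shares over all windows with at least 50 fragments were computed for the main setting (44.9%) and past 1.5-fold (7.77%) only. The other counts have no background beside them. Across the 56 ratios recomputed, 42 kept their direction and side and 4 turned: Pou3f2 to 1.06 and Pou3f3 to 0.99 with all barcodes in place of cells, Pou3f1 to 0.77 with at least 10000 fragments, and Pou3f4 to 1.02 relative to its chromosome. In 7 others the interval came to include 1: Pou3f2 without flanks (0.95) and with at least 10000 fragments (0.76), St18 with the latter (0.99), Myt1 with all barcodes (1.06), and with gene ends alone Myt1 (1.34), Myt1l (0.95) and St18 (0.87). In 3 it came to leave out 1: Pou3f1 (1.24) and Pou3f4 (0.54) with all barcodes, and Pou3f4 with read pairs (0.53). The cause was not tested. The class with the highest level was the same for all 7 members at lower and higher resolution (9 and 14 clusters). The amacrine-like levels did not change with resolution, so for Pou3f1, Pou3f3, Pou3f4, Myt1 and Myt1l, highest there, this was no separate check. Nor was it for St18, whose bipolar-like level was 110.5 CPM at lower and 110.7 at higher resolution, against 110.5 in the main setting. With at least 10000 fragments the highest class was the same for 2 members, Pou3f2 and St18, and no cluster was named amacrine-like. There Pou3f2 had 49.8 CPM in Muller glia-like cells and its ratio within them turned from 1.16 to 0.72 (0.47 to 1.08). The bipolar-like ratios of Pou3f2, Pou3f3 and Myt1l, at 2.53, 1.70 and 0.89, had intervals that included 1. The Myt1l ratio went from 0.64 to 0.54 (0.41 to 0.70) in Muller glia-like cells and from 0.23 to 0.12 (0.06 to 0.22) in rod-like cells. Of 119 class levels recomputed over all settings, 9 fell outside the interval of the main level. At lower resolution only the Muller glia-like levels differed from the main ones among named classes, so the 119 hold many unchanged levels. No paired analysis was possible because the gene values are the authors' own comparison, the transcript counts are not paired with genes, and the multiome has 1 library per group. The planned transcript tests and peak counts at member loci, with their alternatives, were not run. Depth limits Pou3f3 and Pou3f4 most, with 153 and 38 fragments in cells.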

Other observations

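In the fibroblast ATAC-seq peak lists no peak was assigned to a member. Of the regions of at least 1000 bases on chromosome 4 with a peak in all 6 lists, the one with the highest mean -log10 q was chosen after its values were seen. It lies at chr4:22413955-22415265 in the lists' own coordinates, whose build is not the mm10 used above, and it ranked 1 or 2 on that chromosome in every list. The authors' fold over background there was 6.12, 6.00 and 5.93 in the lists with Brn2 and Myt1l, and 5.87, 5.87 and 5.61 in those with Ikzf1/4 added. These values describe the region within each list and are not compared, since the region was chosen on its q and the lists hold 131297 to 207243 peaks. The region was 1311, 1569 and 1311 bases long in the lists with Brn2 and Myt1l, and 1303, 1305 and 1305 in those with Ikzf1/4 added. Pou3f2 is also on chromosome 4, and every fibroblast culture carried a Brn2 vector. Whether this region is part of Pou3f2 was not tested. Whether its reads came from the vector or from fibroblast chromatin was not tested either, so it is not described here as open chromatin.

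The fragments of the long member windows were spread unequally. Of the Myt1 window fragments, 39.4% lay in the 5 kb with most, chr2:181763332-181768331, and 13.1% in chr2:181773332-181778331. The densest 5 kb held 6.83% of the Myt1l and 10.3% of the St18 window fragments.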
